A study of Mus musculus with 8 samples.

Results

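Gene ends that were open in every library of haematopoietic stem cells (HSC), and open over a short stretch only, are described here. Peaks of transposase accessibility on chromosomes 1 to 19 were merged over 8 peak lists when they shared at least 1 bp, which gave 88724 regions. A region was kept when it held a peak of all 8 libraries, was under 2000 bp wide after merging and reached within 1000 bp of either end of a protein-coding gene span. These limits left 12334 regions, 13.9% of all merged regions and 25.33% of the 48684 regions called in all 8 libraries. They lay at the ends of 12535 of 20665 protein-coding genes (60.66%). Of the 12334 regions, 9988 (80.98%) covered the gene end itself, 11569 (93.8%) held a single peak in every library, and their median width was 1219.5 bp. The regions were chosen by their peak calls, width and position, so that these values are a description and no test was made on them.

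Accessibility was profiled by ATAC-seq, in which sequencing adapters are inserted by a transposase wherever chromatin is open, in long-term HSC sorted from mouse bone marrow, with 5000 nuclei per library and 30 min of incubation at 37 °C. The labels give 4 groups of 2 libraries: iMOS_Bcl11aMUT_T1, iMOS_Bcl11aMUT_T2, iMOS_Bcl11aWT_T1 and iMOS_Bcl11aWT_T2, called MUT T1, MUT T2, WT T1 and WT T2 below. All groups carry Vav1-cre, a recombinase driven by a promoter active in blood cells, together with an iMOS Bcl11a allele in its MUT or WT form, and the age is labelled as 2 to 3 months and, for the design, as 3 months. The stated aim is the cell-intrinsic role of Bcl11a in HSC and the effect of its overexpression on wild-type HSC, but the sources used here do not say what separates T1 from T2. Nothing says that the libraries came from separate animals, so p-values measure only the spread between these libraries. The number of peaks on chromosomes 1 to 19 ranged from 60944 to 73328 per library, and the genome-wide background that the peak caller used, a relative measure of depth, from 1.895 to 3.384 fragments per position. The 3 libraries with the lowest background were both libraries of WT T2 and replicate 2 of MUT T1.

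A gene end can be a start, where RNA polymerase II is loaded at a promoter, or a far end, where transcription stops. At starts of genes used in most cells, many of which lie in stretches rich in the dinucleotide CpG, a short stretch is kept free of nucleosomes by general transcription factors such as Sp1, NRF1 and members of the ETS family. At genes that define a cell type the open DNA often reaches further, and enhancers elsewhere carry much of the regulation. Where neighbouring genes start back to back on opposite strands, an open stretch can serve both, and such a shared start is called a bidirectional promoter.

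The sequences below come from the 4 strongest regions shared by head-to-head starts and the 4 strongest at a single start, among those that hold the stretch wholly. They are shown because the DNA at the start was measured apart from the peaks and differed between starts with and without such a region. Each is the 150 bases before a start, 5′ to 3′ on the strand of the gene, from the RefSeq promoter table (build GRCm38.p6, the same coordinates as mm10). Capitals mark matches, on either strand, to 12 motifs searched. They were GGGCGG (the GC box bound by Sp and Klf factors), CCAAT (the box bound by NF-Y), CCGGAAG (bound by factors of the ETS family), CACGTG (the E-box of helix-loop-helix factors), TGACGTCA (the cyclic AMP response element, CRE), TATAAA (the TATA box of the basal machinery), TGTGGT (bound by RUNX factors), AGATAA (bound by GATA factors) and TGACTCA (bound by AP-1 dimers), with the longer motifs of NRF1, YY1 and ZNF143/THAP11. No motif holds another whole one.
Fastkd2 (chr1:63730475-63730624, plus strand): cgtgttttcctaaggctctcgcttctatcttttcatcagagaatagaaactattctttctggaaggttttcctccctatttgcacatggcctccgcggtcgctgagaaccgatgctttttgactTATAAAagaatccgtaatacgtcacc
Mdh1b (chr1:63730319-63730468, minus strand): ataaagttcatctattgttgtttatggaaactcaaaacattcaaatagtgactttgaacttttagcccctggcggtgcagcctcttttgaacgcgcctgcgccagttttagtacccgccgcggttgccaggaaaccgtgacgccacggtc
Cope (chr8:70302617-70302766, plus strand): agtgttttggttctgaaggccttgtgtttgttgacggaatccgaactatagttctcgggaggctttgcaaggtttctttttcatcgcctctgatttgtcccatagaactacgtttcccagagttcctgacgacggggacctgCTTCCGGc
Ddx49 (chr8:70302472-70302621, minus strand): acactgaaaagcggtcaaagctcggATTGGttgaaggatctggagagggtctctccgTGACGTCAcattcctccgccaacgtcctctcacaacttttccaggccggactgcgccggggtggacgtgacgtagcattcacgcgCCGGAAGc
Tube1 (chr10:39133873-39134022, plus strand): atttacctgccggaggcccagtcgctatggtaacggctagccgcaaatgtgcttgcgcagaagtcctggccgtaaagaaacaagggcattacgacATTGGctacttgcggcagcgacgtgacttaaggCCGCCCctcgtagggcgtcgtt
Fam229b (chr10:39133915-39134064, minus strand): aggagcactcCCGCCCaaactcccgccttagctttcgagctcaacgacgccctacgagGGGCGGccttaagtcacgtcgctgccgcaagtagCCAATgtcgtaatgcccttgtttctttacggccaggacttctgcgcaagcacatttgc
Dctn5 (chr7:122132891-122133040, plus strand): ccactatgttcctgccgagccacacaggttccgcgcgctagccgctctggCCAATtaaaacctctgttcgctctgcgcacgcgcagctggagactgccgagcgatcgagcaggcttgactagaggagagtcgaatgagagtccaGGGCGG
Palb2 (chr7:122132947-122133096, minus strand): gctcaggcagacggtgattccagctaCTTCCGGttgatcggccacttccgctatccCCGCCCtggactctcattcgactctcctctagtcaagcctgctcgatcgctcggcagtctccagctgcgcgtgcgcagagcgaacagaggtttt
2310009B15Rik (chr1:138856855-138857004, minus strand): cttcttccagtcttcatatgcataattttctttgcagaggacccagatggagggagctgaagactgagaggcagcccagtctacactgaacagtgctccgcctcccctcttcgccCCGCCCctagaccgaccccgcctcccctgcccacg
Ifit3b (chr19:34607807-34607956, plus strand): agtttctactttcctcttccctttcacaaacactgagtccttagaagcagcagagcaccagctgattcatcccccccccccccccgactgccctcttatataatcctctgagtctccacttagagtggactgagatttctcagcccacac
Zfp329 (chr7:12818861-12819010, minus strand): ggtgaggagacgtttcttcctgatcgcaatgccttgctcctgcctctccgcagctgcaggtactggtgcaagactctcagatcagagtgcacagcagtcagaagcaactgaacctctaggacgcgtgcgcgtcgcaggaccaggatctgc
B9d1 (chr11:61504994-61505143, plus strand): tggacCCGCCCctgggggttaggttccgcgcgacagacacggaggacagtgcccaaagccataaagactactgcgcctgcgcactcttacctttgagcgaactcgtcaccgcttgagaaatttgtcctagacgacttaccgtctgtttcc
The stretches of Tube1 and Fam229b, and those of Dctn5 and Palb2, overlap and show much of the same DNA from opposite strands. Ddx49 had a CCAAT box, a CRE and an ETS match within 150 bases, and its partner Cope had an ETS match next to its own start. Ifit3b, Zfp329 and Mdh1b had no match in these stretches. A match is a description of letters and not a site of binding.

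Starts with such a region were richer in CpG than starts with no region, and starts at a wide region were richer still. Of 14217 genes with a RefSeq start within 500 bp of their span end, 8414 had a narrow always-called region at that start. In the window from 250 bp before to 50 bp after the start, the ratio of observed to expected CpG had a median of 0.765 at these 8414 starts, 0.595 over all 14217 and 0.152 at the 4177 starts with no region at either end of the gene in any library. The share of starts with a region was 9.75% below a ratio of 0.2, 33.5% from 0.2 to 0.4, 69.5% from 0.4 to 0.6 and 85.6% from 0.6 to 0.8. Above a ratio of 0.8 it was 89.1% and, from 1.0 on, 87.3%, so that it no longer rose. GC content had a median of 61.0% at starts with a region and 44.7% at starts with none. The 716 starts at a wide region had a CpG ratio of 0.823, a GC content of 66.7% and the GC box, defined above, at 76.5%.

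Motif matches differed between the same groups of starts. The ETS motif was found at 18.6% of starts with a region, at 28.3% of head-to-head starts with a region, at 12.5% of all starts and at 2.59% of starts with none. The GC box was found at 66.2%, 66.4%, 47.4% and 8.45% of the same 4 groups in that order. The TATA box went the other way, at 6.89% of starts with a region and 30.0% of starts with none. The CCAAT box hardly varied, with 38.9% at starts with a region and 42.1% at starts with none. The YY1 motif was found at 1.7% of starts with a region, 3.07% of head-to-head starts and 1.04% of all starts. GC and CpG content differ between these groups too, and their part in the motif shares was not tested.

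**Figure D1:**
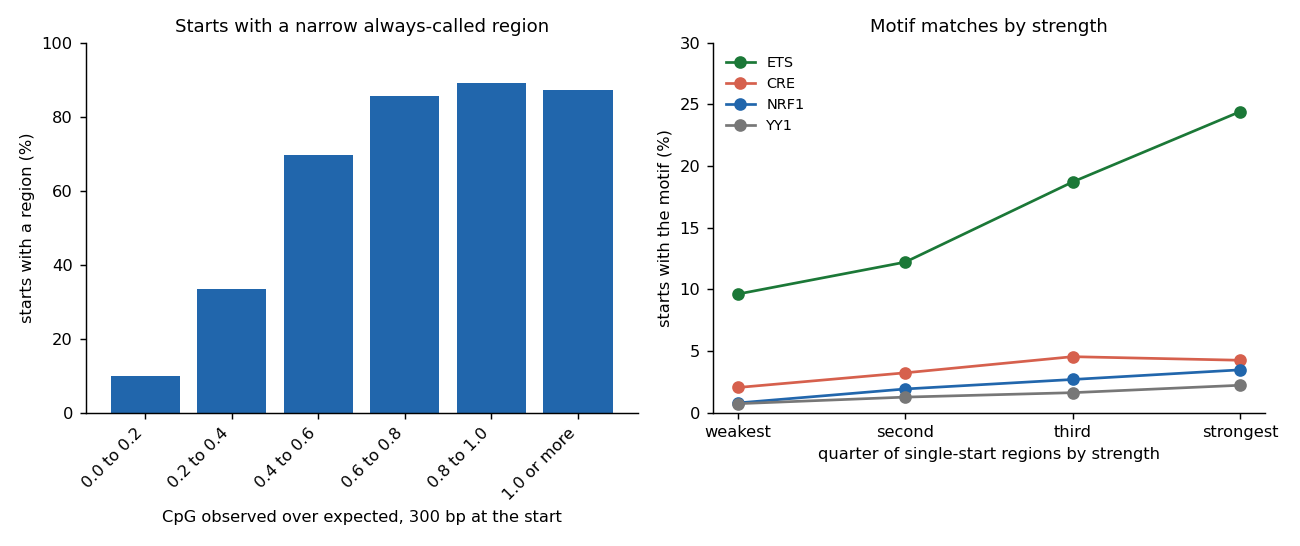
Left, the share of 14217 gene starts that had a narrow always-called region (y axis, %), in bins of the ratio of observed to expected CpG around the start (x axis). Right, the share of starts with a match to 4 motifs (y axis, %) in 4 equal parts of the single-start regions ordered by strength (x axis): the ETS share is 9.61% in the weakest part and 24.4% in the strongest.

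Strength is the fold enrichment that the authors' peak caller gave, the ratio of the summit to the local background around it. It was computed per peak by the authors and serves only for ranking here: in each library every region called in all 8 libraries was ranked, so that all ranked lists have the same length, and the rank is given as a percentile from 0 to 100. Among the 6702 regions at a single start with a promoter sequence, the ETS motif was found at 9.61%, 12.2%, 18.7% and 24.4% of 4 equal parts from the weakest to the strongest. NRF1 matches were found at 0.776% of the weakest and 3.46% of the strongest part. Regions whose start had the ETS motif had a median percentile of 70.8, against 54.9 without it, and the difference was 14.9 to 16.2 in the 8 libraries. Percentiles with and without the motif were 72.2 and 57.4 for NRF1, 71.7 and 57.5 for YY1, and 67.6 and 57.3 for CRE, each higher with the motif in 8 of 8 libraries. GATA, at 65.0 and 57.3, was also higher with the motif in every library, beside a lower GC content (53.7% against 61.3%). For the GC box they were 54.7 and 64.3, lower with the motif in every library. For GATA and the GC box the order turned when regions were ranked by the −log10 p of the peak caller. The median percentile was then 84.9 with the GC box and 80.7 without it, and 79.9 with GATA and 84.0 without it. ETS, NRF1, YY1 and CRE kept their order, with ETS at 90.7 and 81.7. GC content had a median of 64.0% at starts with the GC box and 54.7% at starts without it. Local background was 4.6 times the genome-wide background with the GC box and 3.7 times without it, and it was also higher with ETS (4.47 against 4.24). The part of GC content and local background in these differences was not tested.

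Regions at gene ends ranked above other narrow regions in all 8 libraries, by a modest amount. Median fold enrichment was 7.411 to 9.107 over the libraries, against 7.111 to 8.255 at the 34964 narrow always-called regions with no gene end within 1 kb. Of the latter, the 18842 inside gene spans had median percentiles of 44.41 to 46.29, while the 16122 outside gene spans, at 51.96 to 55.34, overlapped with the 53.39 to 59.27 of gene ends. The median percentile was 55.89 ± 2.478 (SD, n = 8 libraries) at gene ends and 49.4 ± 1.005 elsewhere. The difference of 6.49 percentile points was positive in 8 of 8 libraries (exact two-sided sign-flip permutation p = 0.00781, the smallest that sign flips of 8 libraries allow; Benjamini-Hochberg adjusted p = 0.0117 over 6 tests). It ranged from 2.875 in MUT T2 replicate 1 to 11.19 in MUT T1 replicate 2. The 3 libraries with the lowest background had gene-end percentiles of 57.94 to 59.27 and the other 5 had 53.39 to 54.99, without overlap, and the part of depth in this gap was not tested. The 1035 always-called regions of 2000 bp or more at gene ends were the lowest by fold enrichment, with median percentiles of 21.8 to 28.02.

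The difference in fold enrichment varied with width. In the fullest width bin, which starts at 1000 bp and holds 27.1% of the gene-end regions, the median percentile was 72.0 (70.4 to 74.4 over the libraries) at gene ends and 53.3 (50.2 to 54.2) elsewhere. At 750 to under 1000 bp the values were 56.0 and 55.2, whose ranges overlap. At 500 to under 750 bp the order turned, with 33.3 (30.5 to 35.3) at gene ends and 47.7 (46.2 to 49.5) elsewhere. With all regions limited to under 1000 bp, 3247 gene-end regions remained and the difference was −2.28 percentile points (exact permutation p = 0.0625).

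Gene ends stood out more by the number of fragments than by the ratio. The summit pileup, recovered from the deposited ratio and p-value, had a median of 37.7 times the genome-wide background at gene ends and 17.2 times elsewhere. The local background that divides it was 4.14 times the genome-wide background at gene ends and 1.8 times elsewhere. Ranked by −log10 p, gene-end regions had a median percentile of 80.3 and the others 41.3. Ranked by summit pileup, the difference between the groups was 41.7 percentile points (exact permutation p = 0.00781, 8 of 8 libraries). By its construction the ratio falls where the local background is high.

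**Figure D2:**
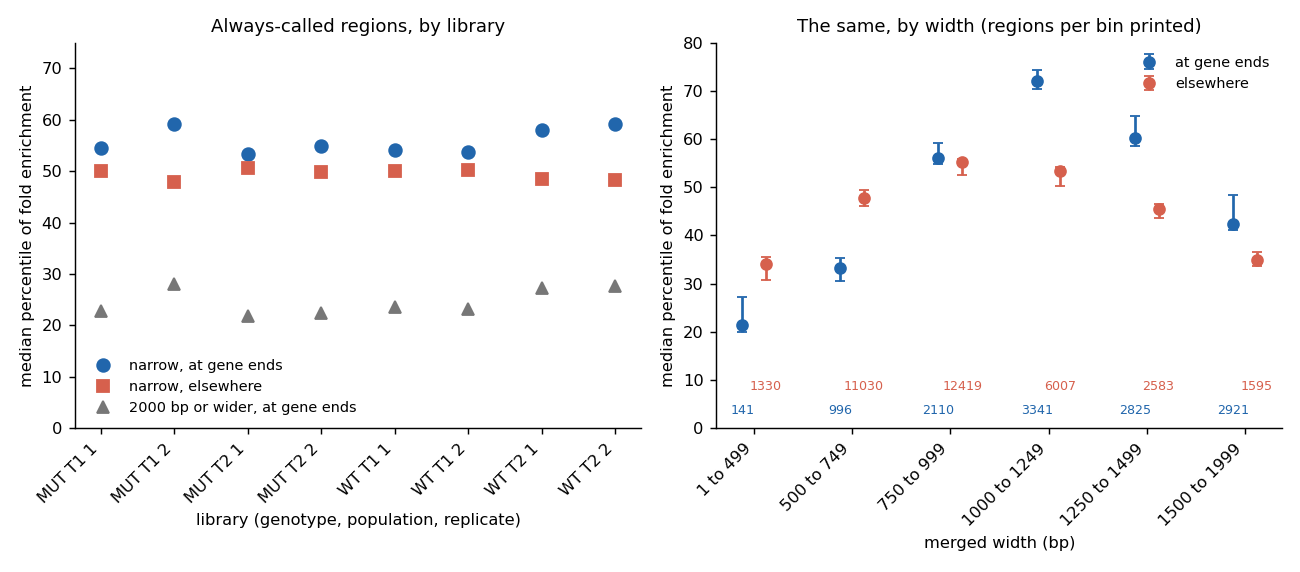
Left, the median percentile of fold enrichment (y axis) in each library (x axis) for narrow regions at gene ends, narrow regions elsewhere and wide regions at gene ends, all called in all 8 libraries. Right, the same by merged width in bp (x axis), where points are the median library, bars run from the lowest to the highest library and the number of regions is printed: gene ends are higher from 1000 bp on and lower below 750 bp.

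Regions at starts were stronger than regions at far ends only. The strand was known for 16457 of the genes (79.64%), which put 7930 regions (64.29%) at starts on 1 strand, 834 (6.762%) at starts on both strands, 1071 (8.683%) at far ends only, and 2499 (20.26%) at genes without a strand in the promoter table. Median percentiles were 53.89 to 60.46 over the libraries at starts on 1 strand, 60.89 to 64.65 at starts on both strands and 45.17 to 49.43 at far ends only. Starts of either kind were 9.92 percentile points above far ends, in 8 of 8 libraries (exact two-sided sign-flip permutation p = 0.00781, Benjamini-Hochberg adjusted p = 0.0117). Far-end regions were also narrower, with a median width of 839.0 bp against 1252.0 bp. With regions under 1000 bp only, the difference was −1.87 (exact permutation p = 0.0625).

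Summits stood close to starts and away from far ends. At 7654 regions with a single start, the summit lay a median of 55.0 bp downstream of the start, with the middle 50% from −34.5 to 219.5 bp, and 71.1% of summits were within 250 bp. At the 1071 far-end regions 13.8% of summits were within 250 bp of the end. The 100 bp just before the far end held 1.12% of their summits, whereas the same 100 bp before a start held 18.9% of summits there. The summit moved between libraries by a median SD of 67.6 bp at single starts and 39.9 bp at far ends. Another RefSeq start lay within 1 kb of 49 of the 1071 far-end regions (4.58%), against 8.05% of the narrow regions away from gene ends.

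**Figure D3:**
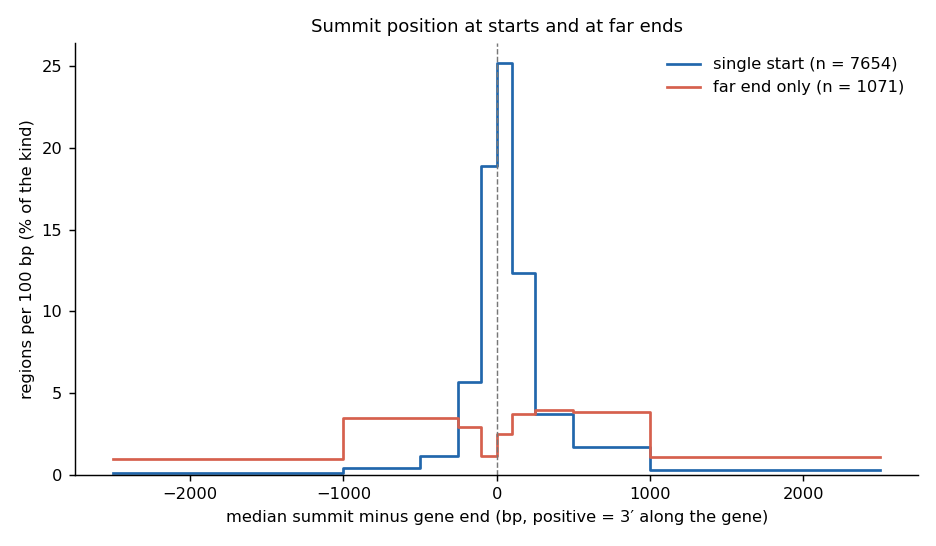
Position of the median summit against the gene end (x axis, bp, positive towards the 3′ side of the gene) for regions at a single start and at a far end only, as the share of regions per 100 bp (y axis, %). The starts peak within 100 bp of position 0, where the share of far ends is 1.12% just before and 2.52% just after the end.

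At most head-to-head pairs a single region reached both starts, an outcome largely set by the limits. A region counted as reaching a start from up to 1000 bp away, and the starts lay no more than 1 kb apart. Among 878 pairs of genes whose starts lay on opposite strands and no more than 1 kb apart, a single narrow region reached both starts in 770 (87.7%), a wide region in 77, and 30 pairs had none. In 1 pair the regions were separate or reached a single start. The share of 87.7% therefore tells mainly how often such starts had a narrow region. A single region reached both ends in 308 of 499 tandem pairs (61.7%) and in 93 of 707 convergent pairs (13.2%), in which far ends meet. The median gap differed too, with 42 bp at head-to-head, 394 bp at tandem and 91 bp at convergent pairs. The strongest shared start was that of Fastkd2, which encodes a mitochondrial RNA-binding protein, and Mdh1b. Its fold enrichment was 15.33 and 13.24 (MUT T1), 16.58 and 14.71 (MUT T2), 17.45 and 16.55 (WT T1) and 15.73 and 15.73 (WT T2). No group stood apart from the others there. Next were the region of Cope, a coatomer subunit gene, and Ddx49, an RNA helicase gene (14.55, 12.29 to 14.82 over the libraries), and that of Tube1, the epsilon-tubulin gene, and Fam229b (14.5, 12.44 to 16.59). Dctn5, a dynactin subunit gene, and Palb2, which encodes the partner of Brca2 in DNA repair, shared a region at 14.14 (13.47 to 16.7). Pfn4 and Fam228b followed at 13.94.

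Shared starts were stronger than single starts. The median percentile of 62.97 at head-to-head regions was 6.26 above the 56.71 of single starts, higher in 8 of 8 libraries (exact two-sided sign-flip permutation p = 0.00781, Benjamini-Hochberg adjusted p = 0.0117). The difference was 4.059 to 8.496 in the 8 libraries, and with regions under 1000 bp only it was 6.52. All regions at ends of 2 or more genes, 1890 (15.32%), were 2.65 above the 10444 at 1 gene (exact permutation p = 0.00781, Benjamini-Hochberg adjusted p = 0.0117, 8 of 8 libraries). With regions under 1000 bp that difference was −6.44 (exact permutation p = 0.00781). At head-to-head pairs with a gap between the starts, the summit lay between them in 175 of 501 (34.9%). That share was 15.2% at gaps up to 100 bp, 43.0% above that up to 200 bp and 72.8% above that up to 400 bp.

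**Figure D4:**
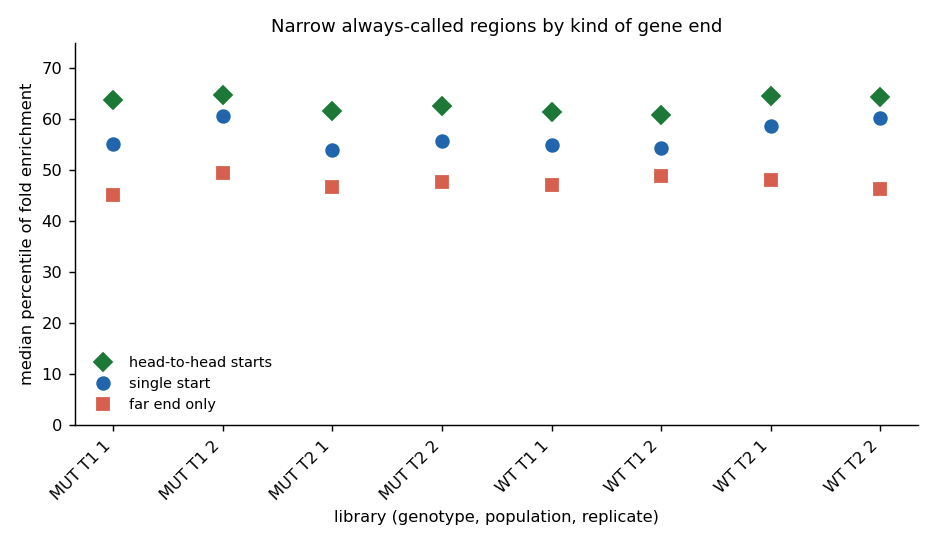
Median percentile of fold enrichment (y axis) in each of 8 libraries (x axis) for narrow always-called regions at head-to-head starts, at a single start and at a far end only. Head-to-head starts lie above single starts and single starts above far ends in every library.

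Of 15 gene pairs listed because they are known as bidirectional, 6 appeared with a narrow region that reached both starts. The 5 at a middling strength were Hspd1 and Hspe1, the mitochondrial chaperonin genes (7.136), Brca1 and Nbr1 (7.059), Surf1 and Surf2 (7.294), Ppat and Paics of purine synthesis (7.114), and Atm, the DNA damage kinase gene, with Npat (7.429). Mrps12, a mitochondrial ribosomal protein gene, and Sars2, a mitochondrial tRNA synthetase gene, shared a stronger region at 11.02 (9.713 to 12.14). Tk1 and Afmid shared a wide region. Among the other pairs, these were no pair within 1 kb by the gene spans and strands used here: Prkdc and Mcm4, Gars and Crhr2, Hars and Hars2, Polr3e and Eef2k, Rpa2 and Themis2, Cops7b and Npff, and Ndufaf2 and Smim15.

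Regions marked both ends of 1401 genes. In 251 of these the same region reached both ends, at short genes with a median span of 1326.0 bp, and in 1150 the regions were separate, with a median span of 18779.0 bp. The start region was the stronger of the pair in 603 of the 1150 (52.4%), and in 431 of the 815 whose far region was no start of another gene (52.9%). The strengths of both ends rose together only weakly across genes, with a Spearman rho of 0.243 to 0.291 in the 8 libraries. Pfdn5, a prefoldin chaperone gene, had 13.08 at its start and 12.85 at its far end, where another gene starts. Dhtkd1, a mitochondrial dehydrogenase gene, had 12.77 and 12.14, also with another start at the far end. Zfp287, a zinc finger gene, had 12.57 and 12.31, and Zfp879 had 16.63 and 12.14, with no other known start at the far end. Lars2, the mitochondrial leucyl-tRNA synthetase gene, had 12.28 at its start and 39.09 at its far end.

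That far-end region of Lars2 (chromosome 9, 123461793 to 123462188, 396 bp) was the strongest of the 12334 regions in every library. Its fold enrichment was 36.33 and 41.01 (MUT T1), 38.25 and 37.23 (MUT T2), 39.26 and 38.93 (WT T1) and 41.27 and 40.67 (WT T2). The next strongest region at a far end only, at Lmo1, an LIM-domain gene, had 15.91 (13.99 to 16.93), and those of Gm40469, Ifnlr1, the interferon lambda receptor gene, and 4930522H14Rik had 15.9, 15.8 and 15.48. Of these genes, Lmo1 and Ifnlr1 also had a weaker region at their start, at 5.15 and 5.568. No pileup could be recovered for the far-end region of Lars2, and the sources used here do not say how reads matching more than 1 place were treated.

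At starts, the strongest was 2310009B15Rik at 20.42, with 17.54 and 20.52 (MUT T1), 21.42 and 19.27 (MUT T2), 18.73 and 20.32 (WT T1) and 26.15 and 24.14 (WT T2). Both WT T2 libraries were the highest there. They also had the highest median fold enrichment over all gene-end regions (8.759 and 9.107, against 7.411 to 8.543 in the other libraries). In percentiles this region ranged over only 0.03287 points between libraries. Cacng2, a calcium channel subunit gene, had 17.58, Ifit3b, an interferon-induced gene, 17.81, Zfp329 17.1, and B9d1, a gene of the ciliary transition zone, 16.98. Ndufs5, a complex I subunit gene, had 16.66 and Ctnnbl1, a splicing-associated gene, 16.64. Kbtbd6 had 17.63 and Snap25, the synaptic SNARE gene, 17.01, both without a strand in the table. The 5 weakest regions of all were at Ski (2.061), Ppp1r18 with Nrm (2.108), the far end of Zfp36 (2.137), Gata2 (2.17) and Klf13 (2.277). Ski is a repressor of TGF-beta signalling, Zfp36 destabilises mRNA, and Gata2 and Klf13 encode transcription factors. Their pileups were 26.3 to 46.9 times the genome-wide background, 3 of them below the 37.7 of the median gene end, and their local background was 12.5 to 22.2 times. Ranked by −log10 p these regions were low as well, from a percentile of 0.799 at Ski to 11.2 at Klf13.

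Most genes of basic cell functions had such a region. Over 12 classes of housekeeping genes, 484 of 525 genes (92.2%) had one, against 60.7% of all protein-coding genes. Among these classes, such regions were found at 73 of 79 genes of cytosolic ribosomal proteins, 73 of 78 of mitochondrial ribosomal proteins, 45 of 50 of proteasome subunits, 36 of 37 aminoacyl-tRNA synthetases and 44 of 47 of complex I. In a pair of separate lists, all 30 DNA repair genes and all 19 genes of mitochondrial import had one. Of the 27 housekeeping genes with neither a narrow nor a wide always-called region at an end, 21 had a RefSeq start to look at. At 11 of these an always-called region lay at a start inside the gene span. Rps2, Mrpl24, Psma6, Psmf1, Eprs, Med10, Ddx56 and Snrpn were among the 11. Over all protein-coding genes the same was so for 659 of 5664 (11.6%).

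The regions of these classes were also strong, though not evenly. The median over all genes with a region was a fold enrichment of 8.31 and a percentile of 59.6. Aminoacyl-tRNA synthetases had a median of 10.6 (percentile 84.9), led after Lars2 by Pars2 (14.23), Sars (12.45) and Wars2 (11.99). Mitochondrial ribosomal proteins had 10.1 (83.4), with Mrpl35 at 14.96, Mrps17 at 14.94 and Mrpl58 at 14.86. DEAD-box helicases had 10.5 (83.1), with Ddx18 at 13.9 after Ddx49, and proteasome subunits had 10.2 (81.5), with Psmb5, a catalytic subunit, at 14.32 and Psmd9 at 12.88. The cytosolic ribosomal proteins were lower, at 8.8 (65.9), with Rps23 at 12.77 and Rpl5 at 11.64, and their local background was higher, at 5.48 against 3.73 at their mitochondrial counterparts. Translation initiation factors had 8.51 (62.0), near the median of all genes, with Eif3m at 14.38. DNA repair genes had 9.64 (74.6), with Palb2 (14.14) and Fancd2 of the Fanconi pathway (12.14) among the strongest.

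Zinc finger genes named Zfp combined a moderate share with high strength. A region was found at 307 of 388 (79.1%), and their median fold enrichment was 9.97 (percentile 79.8) over a local background of 3.63. Zfp329 (17.1), Zfp879 (16.63), Zfp738 (15.96) and Zfp772 (15.32) led. Slc25 mitochondrial carriers had a region at 36 of 43 genes (median 8.4), histone genes at 5 of 14 (5.35), cadherins and protocadherins at 29 of 95 (7.15) and cytochrome P450 genes of the Cyp1 to Cyp4 families at 17 of 80 (9.67). Genes of the olfactory receptors lay at the other end, with 17 of 1104 (1.54%), as did vomeronasal receptors with 2 of 354 (0.565%), defensins with 3 of 71 and keratins with 13 of 109. Of the olfactory receptor genes with neither a narrow nor a wide always-called region at an end, 924 had a RefSeq start. None of the 924 had an always-called region at a start inside the span either. At the 17 olfactory receptor genes with a region, strength ran from Olfr1509 (14.82) and Olfr658 (14.73) down to Olfr419 (5.582) and Olfr544 (5.203). The 17 had a median of 9.72 over a local background of 1.2 and a pileup of 15.3. Over all genes with a region the pileup was 40.1, and ranked by −log10 p the 17 had a median percentile of 47.5, against 84.0 over all genes.

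**Figure D5:**
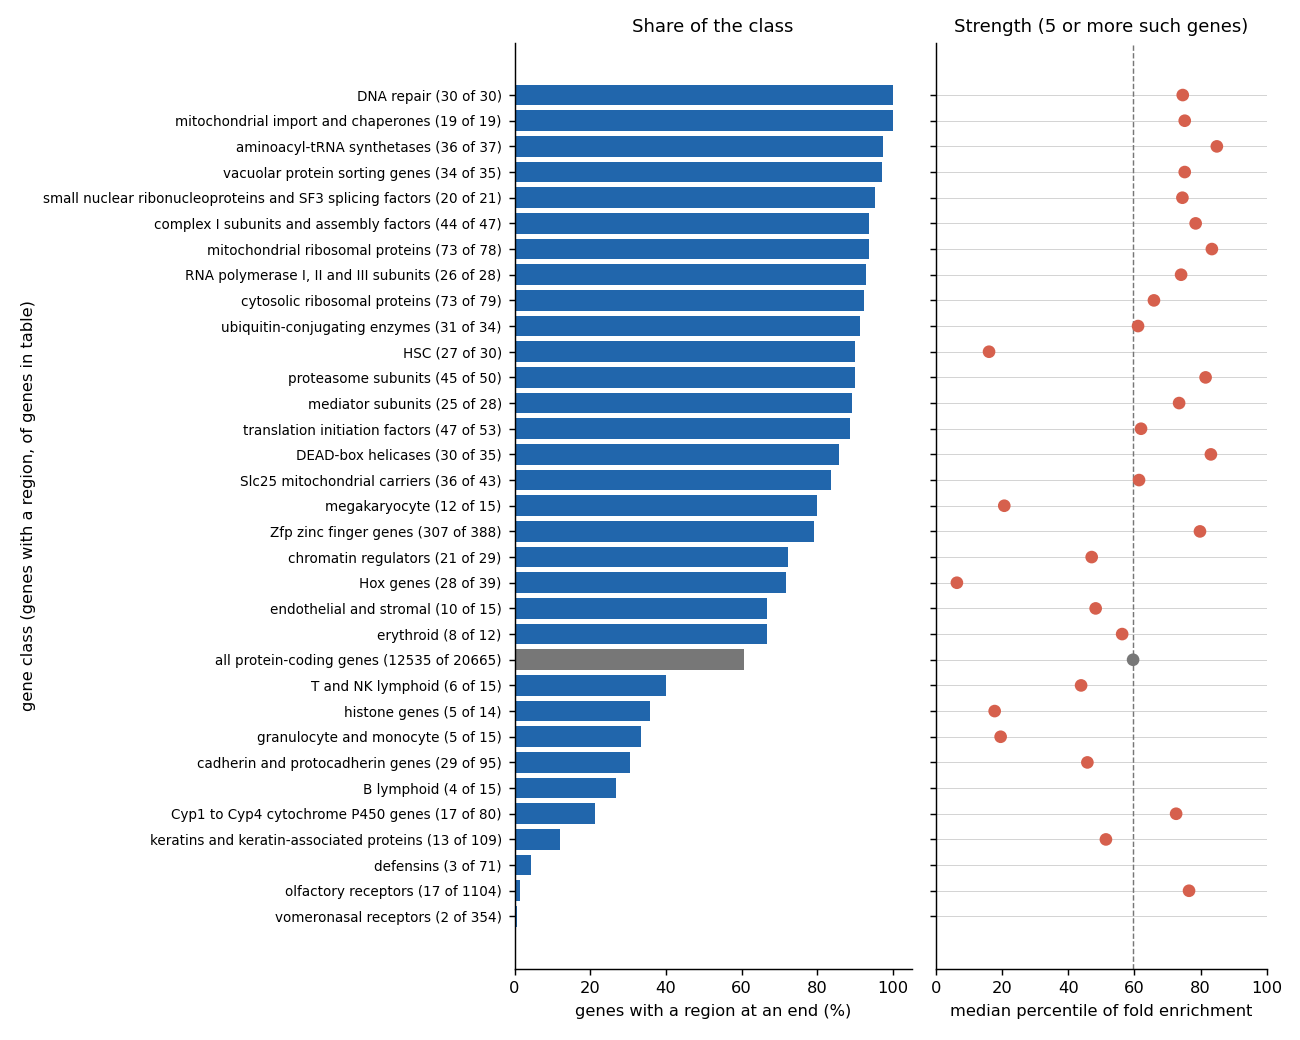
Left, the share of genes in each class or list (y axis) that had a narrow always-called region at an end (x axis, %). Right, the median percentile of fold enrichment of these regions (x axis) where at least 5 genes had one, with a dashed line at 59.6, the median over all genes. HSC genes have a share of 90.0% and a percentile of 16.1, while aminoacyl-tRNA synthetases have 97.3% and 84.9, and translation initiation factors 88.7% and 62.0.

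HSC genes nearly all had narrow regions at their ends, but with low ratios. Of 30 HSC genes listed, 27 had one (90.0%), and all 24 with a known strand had one at the start. Over all protein-coding genes, 60.7% had one, and 57.4% of those with a known strand had one at the start. The differences were not tested. The share was as high at housekeeping genes (92.2%) and at DNA repair genes (30 of 30), and lower in the lymphoid and granulocyte lists given below. A high share was therefore not particular to HSC genes. Fli1, Hoxb5 and Ly6a had an end region in some libraries only. At the HSC genes the median fold enrichment was 5.28 and the median percentile 16.1, against 8.31 and 59.6 over all genes. Local background was 6.79 times the genome-wide background, against 4.23, and pileups were 35.2 times, against 40.1. Ranked by −log10 p the HSC regions had a median percentile of 58.9, against 84.0. The part of the local background in the low ratio was not tested.

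Individual HSC genes spread widely. Cd34, a surface marker of progenitors, was the highest at 13.17, with 12.02 and 13.18 (MUT T1), 13.53 and 12.03 (MUT T2), 13.65 and 15.02 (WT T1) and 11.89 and 13.15 (WT T2), at its far end. Both WT T1 libraries lay above all others there in fold enrichment, which was not scaled between libraries, and the other 3 groups overlapped. Its start had a weaker region, at 6.495. Ifitm1 followed at 7.916, then Tek, an angiopoietin receptor gene, at 7.733. Kit, the stem cell factor receptor gene, had 5.282. The transcription factor genes ran from Hoxa10 (6.949), Gfi1b (6.504), Hlf (6.495), Erg (5.818) and Etv6 (5.672) above Kit to several below it, of which Runx1 had 4.497, Tal1 4.443, Meis1 4.376, Mecom 4.141, Prdm16 3.528, Lyl1 3.427, Hoxa9 3.026 and Gata2 2.17. At Gata2 the values were 2.048 and 2.453 (MUT T1), 2.013 and 2.173 (MUT T2), 2.167 and 1.838 (WT T1) and 2.177 and 2.315 (WT T2). Mecom had a local background of 12.7 and a pileup of 53.0, and Tal1 had 11.0 and 51.5, so that these starts held more fragments than the usual gene end. The Hox genes as a class, patterning factors of which several act in HSC, had a region at 28 of 39 and a median of 4.37 (percentile 6.39). Their local background of 4.13 was close to that of all genes, and their pileup of 21.5 was lower.

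Bcl11a, the gene altered in these mice, encodes a zinc finger repressor and had a region over its start (chromosome 11, 24076085 to 24077768, mm10). Its fold enrichment was 2.875 and 3.82 (MUT T1), 2.97 and 3.15 (MUT T2), 2.787 and 2.898 (WT T1) and 3.361 and 3.179 (WT T2). In fold enrichment, which was not scaled between libraries, MUT T1 overlapped with each of the other 3 groups, which did not overlap with each other. In percentiles the region ranged over 2.173 points between libraries. The MUT and WT libraries overlapped, and the difference between them on the scale of normal scores defined below was 0.154 ± 0.192 (SE, limma, Benjamini-Hochberg adjusted p = 0.955). The region does not check the genotype, since a transgene need not change the native start. Of the other chromatin regulators, Smarcb1 of the SWI/SNF complex (10.88), the remodeller Chd4 (10.34), Hdac2 (9.976) and Kdm1a (9.856), which demethylates histone H3, were the strongest, and Bmi1 (3.342) and Arid1a (3.849) were, after Bcl11a, the weakest of the 21 with a region. Ctcf, Ep300, Hdac3, Kmt2a and Kmt2d had a wide region in its place. Dnmt1 and Dnmt3a had an always-called region at a start inside the span, and Rad21, which had no region at either end, had no RefSeq start to look at.

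Genes of lymphoid and granulocytic cells mostly lacked a narrow region in these lists. One was found at 4 of 15 B lymphoid genes, 6 of 15 T and NK lymphoid genes and 5 of 15 granulocyte and monocyte genes, against 60.7% of all genes, and the differences were not tested. Of the 29 genes of these 3 lists with no narrow or wide always-called region at an end, 26 had a RefSeq start. Of the 26, 0 had an always-called region at any such start, and Rag1, Rag2, Cd3e, Lck, Elane and S100a8 were among them. Several regions that were found lay away from a known start. Cd3d (9.094), of the T cell receptor complex, and Prtn3 (4.561), a granule protease gene, had one at the far end only, and Ebf1, an early B cell factor gene, had 13.81 at its far end and 4.305 at its start. At starts, Bank1 had 10.5, Ltf, the lactoferrin gene, 7.976, Tbx21 7.318, Lyz2 7.064 and Tcf7 6.576. Megakaryocyte genes had a region at 12 of 15 with a median of 5.59. They were led by Gp1ba (8.611) and the far end of Nbeal2 (8.063), where another gene, Nradd, starts. Red cell genes had one at 8 of 12, with Klf1 (9.398) and Tfrc (9.176) among the strongest. Endothelial and stromal genes had one at 10 of 15, with Kdr at its far end (9.916) and Col1a1 (9.047) ahead, and Cdh5 and Col3a1 had none.

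The percentile of a region ranged over a median of 20.69 points between its lowest and highest library at gene ends and 27.66 points elsewhere. Within each of 5 bands of strength the range was also smaller at gene ends, with 26.68 against 36.19 points for regions between the 40th and 60th percentile. Pileups were higher at gene ends, as given above, and their part in this was not tested. The widest ranges were at Gm5784 (4.244 to 12.52), Unc5d, an axon guidance receptor gene (4.334 to 13.13), and Shank2, a synaptic scaffold gene (3.878 to 10.16), all with pileups of 8.46 to 10.8, at a local background equal to the genome-wide one.

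No difference between genotypes or populations in the strength of the gene-end regions as a whole passed the test. The 4 MUT libraries had a median percentile of 55.53 ± 2.504 and the 4 WT libraries 56.25 ± 2.776 (SD over libraries), which differ by −0.725 (two-sided exact permutation test, p = 0.857, adjusted p = 0.857 after Benjamini-Hochberg; smallest possible p 0.0286). It was 55.38 in T1 and 56.4 in T2 libraries, a difference of −1.02 (exact permutation p = 0.657, adjusted p = 0.789). The difference between genotypes changed sign with single libraries, as it became 0.00422 without MUT T2 replicate 1 and 0.299 without WT T2 replicate 2. Among the 5 libraries of higher background, the 3 MUT libraries had 53.39 to 54.99 and the 2 WT libraries 53.74 to 54.06, which overlap.

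Single regions were compared with limma on normal scores, the percentile of a region turned into the matching point of a normal curve, over all 48684 always-called regions. Of the 12334 gene-end regions, 0 passed a Benjamini-Hochberg adjusted p of 0.05 between MUT and WT, against 0.0% of all regions, and likewise 0 between T1 and T2 and 0 for the interaction, each also against 0.0%. At an unadjusted p under 0.05, limma gave 375 gene-end regions between MUT and WT (3.04%, against 6.51% of all regions), 342 between T1 and T2 (2.77%, against 5.47%) and 686 for the interaction (5.56%, against 7.17%). All 3 shares of the gene-end regions lay below those of all regions. In simulated scores, limma called 14.0% of regions with a true MUT minus WT difference of 1.0 normal score and 76.0% with 2.0. A count of 0 therefore does not show that no region differed by about 1.0. The HSC list had 0 regions called and 1 of its 31 regions under an unadjusted p of 0.05, with a median difference of 0.0623 against −0.00535 over all regions.

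The interaction, the MUT against WT difference in T1 minus that in T2, was positive at 8176 of the 12334 gene-end regions, with a median of 0.174, against 0.0271 over all regions. MUT T1 and WT T2 enter this contrast with a positive sign, and the 3 libraries of lowest background all belong to these groups. Depth therefore moves with the contrast, and its part in the median of 0.174 was not tested. With depth as a term, limma gave 372 gene-end regions (3.02%, against 5.56% of all regions) at an unadjusted p under 0.05 and 0 at an adjusted p under 0.05.

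The gene-end region nearest to the threshold was at Pnp2, a purine nucleoside phosphorylase gene (chromosome 14, 50955705 to 50956858). It had 9.98 and 13.15 (MUT T1), 12.81 and 13.07 (MUT T2), 8.016 and 7.923 (WT T1) and 9.283 and 8.981 (WT T2). Every MUT library lay above every WT library, with a difference of 1.36 ± 0.205 (SE) that did not pass (limma, Benjamini-Hochberg adjusted p = 0.106). Its neighbour and near-identical copy Pnp, at 50943859 to 50945120 of the same chromosome, had the opposite order, with 9.653 to 11.37 in MUT and 13.1 to 16.16 in WT libraries (difference −0.919 ± 0.214, limma adjusted p = 0.43). The sources used here do not say how reads were split between these copies, so both values are uncertain. Clec4a2, a C-type lectin receptor gene, had 5.702 to 9.731 in MUT and 4.66 to 6.962 in WT libraries, with overlap (limma adjusted p = 0.325). Csf3, the gene of the granulocyte growth factor G-CSF, had 10.22 to 12.26 in MUT and 12.94 to 18.35 in WT libraries, with no overlap (limma adjusted p = 0.383). Of the 10 regions nearest to the threshold in each direction, 6 of 20 lay on chromosome 14, which holds 3.33% of the gene-end regions, and these 6 are at Pnp2, Pnp, Gm38418, Gm3248, Acox2 and Abhd6.

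Between T1 and T2 the nearest were the far ends of Lrrc74a and of Tnfsf14, a TNF family ligand gene, on the side of T1, and St8sia1, a ganglioside synthase gene, on the side of T2 (limma adjusted p = 0.902 for each). St8sia1 had 5.116 and 6.679 in MUT T1 and 6.47 and 7.522 in WT T1, against 9.688 and 7.388 in MUT T2 and 10.91 and 10.76 in WT T2, with a slight overlap. For the interaction they were Cpa1, Ccdc77 and 3300002I08Rik on the negative side and Rbm46 and Runx1t1, a corepressor gene, on the positive side (limma adjusted p = 0.684 for each). At Runx1t1 the values were 8.601 and 9.757 (MUT T1), 6.761 and 6.72 (MUT T2), 6.524 and 7.131 (WT T1) and 9.309 and 9.719 (WT T2).

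The limits that chose the regions cut through a continuum. At the width limit, Ppp1r16b (1999 bp, fold enrichment 4.846), Lrrc56 (1999 bp, 6.895) and Nol4l (1998 bp, 3.56) were just inside, and 4930402H24Rik (8.508), Tfap2e (3.968) and Vat1 (3.261), each 2000 bp wide, just outside. At the distance limit, Zfp444 and Trpc7 (1000 bp, 7.101 and 10.33) and Rc3h2 (999 bp, 9.971) were inside, and Bcat2 (5.26), Grin2d (5.069) and Dnaaf4 (7.869), at 1001 bp, were outside. Of narrow regions at gene ends, 461 were called in 7 libraries and 590 in 1. Their median fold enrichment was 5.118 and 3.795, against 7.998 at those called in all 8.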

How the data were processed

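Peaks were called by the authors with MACS2 after alignment with Bowtie2 to mm10, and SAMtools was used, per the submitters' processing notes; no versions, no cut-site shift and no treatment of reads with several matches are given in the sources used here. Each deposited peak list held 1 library. MACS2 as run by the authors wrote the deposited score per peak, which is not used here. Each list also gives the fold enrichment at the summit as a ratio to the local background, −log10 p and −log10 q; the deposited lists held no −log10 q below 3.0. Local background, pileup and the background per library were solved from the deposited ratio and −log10 p, and the pileups came out whole for 100.0% of peaks tried, within 0.01 of −log10 p.

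A region took, in each library, its peak of highest fold enrichment. Gene spans, starts and promoter sequences came from RefSeq tables of GRCm38.p6, the assembly of mm10; promoter entries over 500 bp from the span end were left out, as were genes on X and Y. Group values were compared by exact two-sided permutation tests over libraries: sign-flips within the 8 libraries, or 70 arrangements of 4 against 4. Single regions were compared by limma with Benjamini-Hochberg adjustment over 48684 regions. Used were Python 3.11.15, numpy 2.4.6, pandas 2.3.3, scipy 1.17.1, matplotlib 3.10.9, R 4.3.3 and limma 3.58.1. The limma step was tested on simulated scores, with 100 regions changed by 1.0 and 100 by 2.0 normal scores, and the shares called are given above. Deviations of same-numbered libraries had correlations of 0.015 to 0.07 over 6 pairs of groups. Such values cannot tell whether replicate numbers pair the libraries, and the main tests used no pairing.

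The regions, gene classes, gene lists and tests were chosen with earlier results of these data known. Named genes were the 10 strongest and 5 weakest regions, the 5 strongest at head-to-head starts and at far ends, the 5 with the strongest weaker end, 2 to 4 leading genes and any gene without a region per list, the 10 nearest to the limma threshold per direction, and the 3 on each side of each limit; not every one is printed, and some are not reported here. Other genes of the HSC and lineage lists, the genes named with a start inside the span, and genes of widest range were chosen after their values were seen. Promoters printed are the strongest with all 150 bases inside the region. Alternatives were stricter peaks, another overlap, distance, width and measure of strength, the mean over peaks, a replicate block, depth as a term and each library left out.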

Additional observations from a re-analysis of the deposited data

Results flagged for a closer look

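Of 32 sets of 4 libraries checked over 8 quantities, 6 had a library far from the other 3, and in each it was MUT T1 replicate 2. For a single set chance gives about 1 in 20. The sets share libraries and the quantities share regions, so the 6 are not separate observations. The gap of MUT T1 replicate 2 to the nearest library, as a share of the whole range, exceeded Dixon's critical value at 95%. Among the T1 libraries its median percentile was 59.14 at narrow regions at gene ends, where the nearest library had 54.58. It was 47.95 at narrow regions elsewhere (nearest 50.03), 59.0 at ends of a single gene (nearest 53.85) and 60.6 at starts on 1 strand (nearest 55.17). At wide regions it was 28.02, both among the MUT libraries (nearest 22.81) and among the T1 libraries (nearest 23.6). The genome-wide background of this library was 2.035, against 3.103 to 3.384 in the other MUT and the WT T1 libraries, and its part in these values was not tested.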

How the results depend on the processing

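Of 174 values recomputed over 19 settings, 167 kept their direction and their side of the threshold, or for counts stayed within 1.5 times, and the cause of the other changes was not tested. With regions under 1000 bp only, 3247 regions remained at gene ends, fewer by construction, and the difference was −2.28 between gene ends and elsewhere (exact permutation p = 0.0625), −6.44 between shared and single ends (exact permutation p = 0.00781) and −1.87 between starts and far ends (exact permutation p = 0.0625). With the 60000 best peaks per library, gene ends were 3.14 above elsewhere (exact permutation p = 0.0547). MUT minus WT was 0.00422 without MUT T2 replicate 1 and 0.299 without WT T2 replicate 2 (exact permutation p = 0.371 to 1.0 over the libraries left out). Leaving out each library in turn gave 12386 to 12490 regions, and differences of 6.6 to 7.02 for gene ends, 2.45 to 3.09 for shared ends, 6.06 to 6.7 for head-to-head starts and 9.55 to 10.6 for starts against far ends. It gave −1.89 to 0.299 between MUT and WT, −2.26 to −0.0789 between T1 and T2, and 0 regions by limma in each contrast; a group left with 1 library was assumed to vary like the others. With the replicate block, MUT minus WT was −0.725 (exact permutation p = 1.0), T1 minus T2 was −1.02 (exact permutation p = 0.75) and limma called 0 regions in each contrast. Ranking by summit pileup, chosen after seeing the data, gave 41.7 for gene ends, 9.34 for shared ends, 9.19 for head-to-head starts and 36.2 for starts against far ends, and −0.322 and −0.319 for MUT minus WT and T1 minus T2. The background per library, 1.895 to 3.384, limits what could be seen at regions of low pileup, and the number of libraries limits the smallest p.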
